A study of Mus musculus with 24 samples.

Results

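The 41 genes described here encode lysosomal enzymes, their activator and transfer proteins, lysosomal membrane proteins and the transcription factor Tfeb, and were taken by gene symbol from a list. No measured value enters that rule, but the list was drawn up with earlier results of these data known. They make up 41 of the 43346 genes counted, each with 1 entry, and all 41 passed the filter on low counts that left 21891 genes for testing. RNA was sequenced in 24 libraries of mouse cortex in 4 groups of 6, with no sorting of cells mentioned. Mice labelled Abca7 and given lipopolysaccharide (LPS, a glycolipid of bacterial outer membranes that the innate immune system recognises) were 54 to 56 days old, and mice labelled Abca7 with no stimulus were 55 to 58 days old. Control mice given LPS were 54 to 56 days old, and control mice with no stimulus were 55 to 57 days old. The series text describes the Abca7 label as heterozygous for Abca7, a lipid transporter gene, and says that LPS was injected. For the strain, the nature of the allele, and the dose, route and time of LPS, the sources used here give nothing. The groups are called Abca7 LPS, Abca7 none, control LPS and control none.

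Lysosomes are acidic organelles in which hydrolases break down proteins, glycans and lipids taken up by endocytosis or delivered by autophagy. Most soluble hydrolases are made in the endoplasmic reticulum and sorted by mannose 6-phosphate receptors, while membrane proteins such as LAMP1 and LAMP2 form the lining of the organelle. TFEB binds E-box type sites upstream of many lysosomal genes and raises their transcription when it enters the nucleus. In brain, many of these genes are used across cell types, and several are abundant in microglia. Inherited loss of many of these genes causes storage diseases with neurodegeneration.

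With LPS, 3 of the 41 members (7.32%) passed the test in Abca7-labelled mice, against 11.8% of all genes tested, and 11 (26.8%) in control mice, against 17.3%. Among the genes in the members' range of abundance, 13.7% and 20.5% passed. Ctsh, the cathepsin H gene, and Tfeb fell and Ctsl, the cathepsin L gene, rose under both genotype labels, and 8 further members passed the test in control mice only. Between genotype labels no member passed. Total counts ran from 48149131 to 75741388 per library. The lowest count of a member in any library was 113, so no member was limited by absence of reads. The Abca7 transcript itself had a lowest, median and highest level of 25.2, 29.97 and 31.5 CPM (read counts scaled to a common library size, with factors for library composition) in Abca7 LPS cortex, against 20.6, 25.6 and 27.1 CPM in control LPS cortex. Without LPS these were 29.9, 31.3 and 34.8 CPM in Abca7 none cortex, against 26.6, 27.99 and 32.2 CPM in control none cortex. The level was therefore not lower under the Abca7 label, and directions between genotypes below refer to labels. Which part of the gene the allele alters is not given, so gene counts may not register it.

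Per transcript length, the most abundant member was Psap, which encodes prosaposin, the precursor of the saposins that help sphingolipid hydrolases. Its level was 454 ± 15.9 CPM per kilobase in Abca7 LPS cortex, 442 ± 13.9 in Abca7 none cortex, 458 ± 12.6 in control LPS cortex and 440.4 ± 14.6 in control none cortex (mean ± SD, n = 6 each). In control none cortex, Lamp1, a major membrane glycoprotein of the lysosome, followed at 100.2 ± 4.08 CPM per kilobase. Ids, a sulfatase of heparan and dermatan sulfate, stood at 99.4 ± 7.07. The aspartic protease Ctsd stood at 90.7 ± 2.60 and the cysteine protease Ctsb at 90.3 ± 2.78 CPM per kilobase. Lamp1 and Ids lay within 1 SD of each other, as did Ctsd and Ctsb. At the other end, Ctsc, the activator of granule serine proteases, had 1.08 ± 0.114 CPM per kilobase, Tfeb 1.14 ± 0.115 and Sgsh, a heparan sulfatase, 1.19 ± 0.119, and each of these lay within 1 SD of the next.

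Among upstream sequences in the RefSeq promoter table (GRCm38.p6), 37 of the 41 members were found. Ctsh, Npc1, Asah1 and Ctsb had no entry in the table. In the 250 bases before the annotated start, the E-box CACGTG lay in 13 of the 37 members (35.1%), against 1854 of all 27025 genes in the table (6.86%). Its extended form TCACGTGA, which contains CACGTG, lay in 5 of 37 members (13.5%), namely Cln3, Ctsa, Ctsd, Gla and Mcoln1, against 245 of 27025 genes (0.907%). Both motifs read the same on either strand, so 1 search covered both strands. Of 9 members with an entry that passed an LPS comparison, 3 held CACGTG and 0 held TCACGTGA. Of 28 that passed neither, 10 held CACGTG and 5 held TCACGTGA. These matches are letters in a window and were not tested as sites. The stretches below show what such matches look like in 2 members that passed no comparison, Lamp1 and Mcoln1 (a calcium channel of the lysosomal membrane), and in Gaa, the glycogen-degrading acid alpha-glucosidase, which rose in control mice. They are upstream stretches on the strand of the gene that no annotated exon reaches, with CACGTG in capitals. Lamp1 lies at chr8:13158911-13159134, Mcoln1 at chr8:3500269-3500456 and Gaa at chr11:119267713-119267886, all on the plus strand.
Lamp1: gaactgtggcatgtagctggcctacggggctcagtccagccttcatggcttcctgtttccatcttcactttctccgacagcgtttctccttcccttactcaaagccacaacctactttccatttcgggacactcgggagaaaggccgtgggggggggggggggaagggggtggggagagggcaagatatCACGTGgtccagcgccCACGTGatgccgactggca
Mcoln1: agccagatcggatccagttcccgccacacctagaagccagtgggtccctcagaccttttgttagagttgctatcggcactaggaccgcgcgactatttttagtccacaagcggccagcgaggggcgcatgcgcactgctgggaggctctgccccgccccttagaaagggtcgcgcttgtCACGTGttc
Gaa: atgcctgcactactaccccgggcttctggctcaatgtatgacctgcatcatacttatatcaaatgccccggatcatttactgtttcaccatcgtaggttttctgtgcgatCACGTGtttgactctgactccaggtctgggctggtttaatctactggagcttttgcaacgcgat
Lamp1 has 2 copies in this stretch, at bases -61 and -45 before the RefSeq start, and 4 in its whole window. The Mcoln1 stretch has 1 copy, at -71, of 2 in its whole window; its TCACGTGA lies closer to the start and is not in the stretch printed. Gaa has 1 copy, at -140, in its stretch and in its window.

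The first question was what LPS does to these genes in mice labelled Abca7. Of the 41 members, 1 rose (Ctsl) and 2 fell (Ctsh and Tfeb) at an adjusted p under 0.05 (edgeR's quasi-likelihood test, Benjamini-Hochberg adjustment over all genes). Over all 21891 genes, 6.65% rose and 5.18% fell. In control mice, 8 members rose and 3 fell, against 9.39% of all genes that rose and 7.92% that fell. The members called in both comparisons were 3, with 8 called in control mice alone, 0 in Abca7-labelled mice alone and 30 in neither. The 2 comparisons share no library, and 32 of 41 members (78.0%) had the same sign in both, against 75.0% of all genes.

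The median absolute log2 fold change of the members was 0.06 in Abca7-labelled mice, against 0.09 over all genes tested and 0.07 over the 14494 genes in the members' range of abundance. In control mice it was 0.08, against 0.11 over all genes and 0.08 in that range. No member changed more than 2-fold. The median signed log2 fold change was 0.00 in Abca7-labelled mice and 0.04 in control mice, against 0.01 over all genes in each. The 95% interval lay within ±0.3 for 35 members in Abca7-labelled mice and for 33 in control mice.

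**Figure D1:**
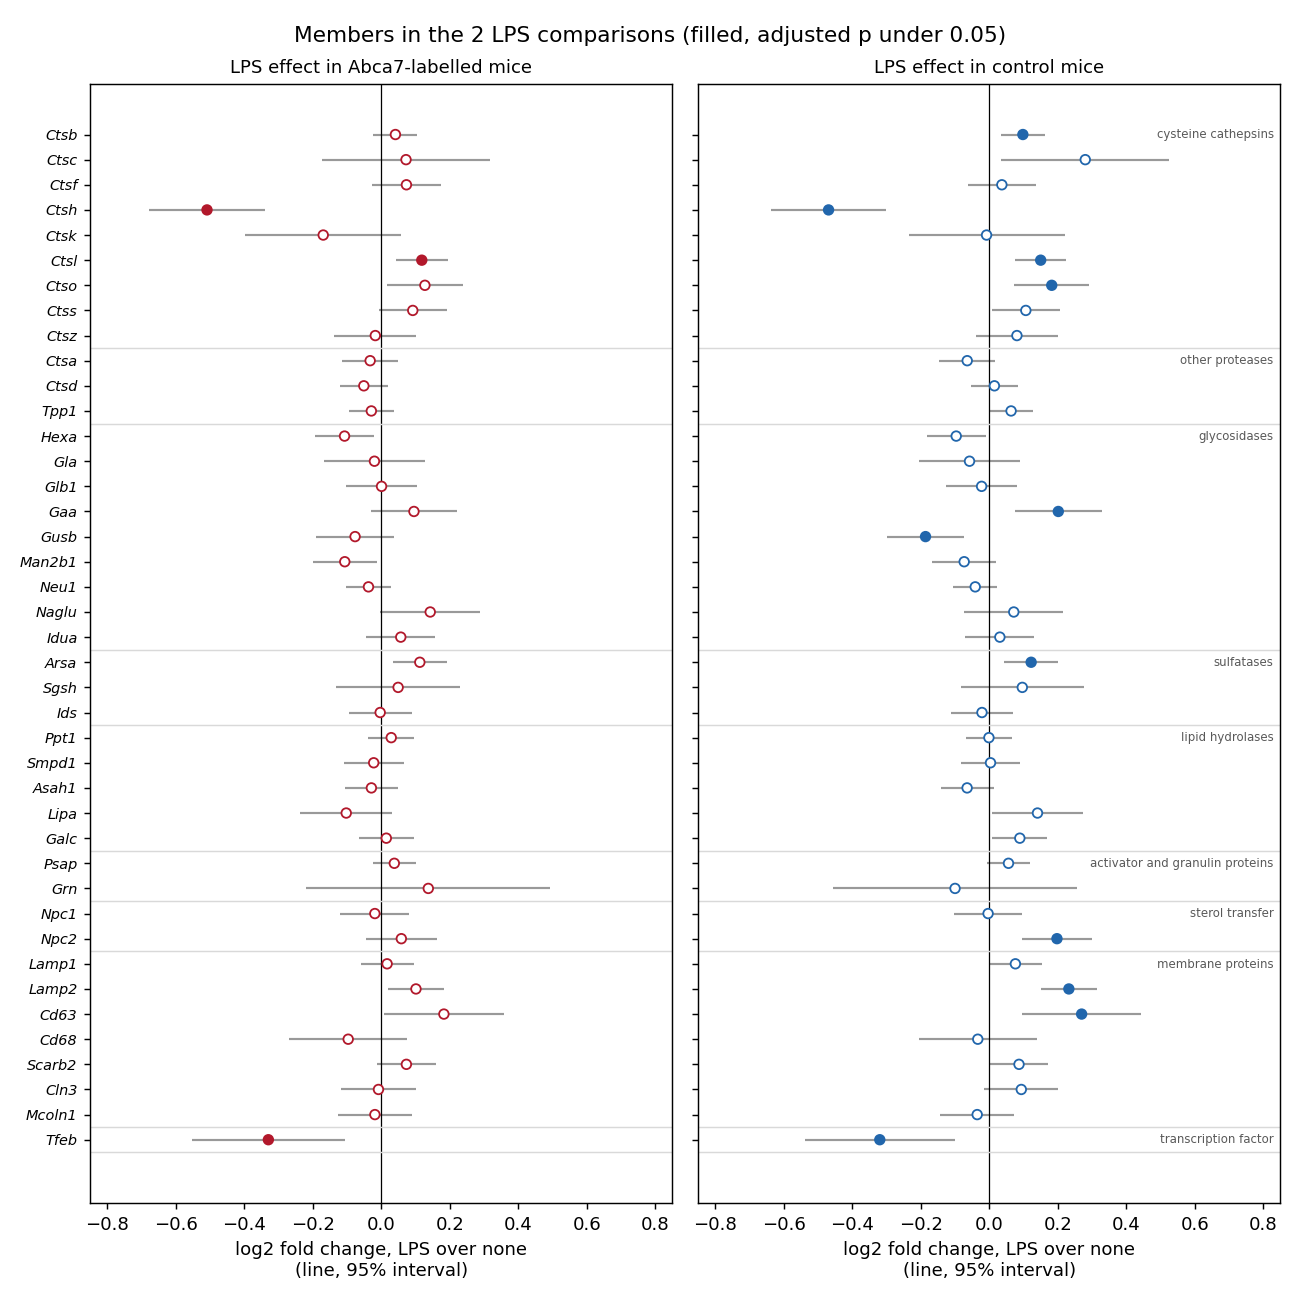
Log2 fold change of LPS over none for each of the 41 members, grouped by role, in mice labelled Abca7 (left) and control mice (right). Points are the fitted changes, lines their 95% intervals, and filled points passed an adjusted p of 0.05: 3 on the left and 11 on the right. Ctsh lies farthest from 0 in both panels.

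Cysteine cathepsins are the largest family of lysosomal proteases, and 9 are members. In Abca7-labelled mice 1 rose and 1 fell, and in control mice 3 rose and 1 fell. Ctsh (chr9:90054152-90076089), an aminopeptidase, had the largest change of any member. Its lowest, median and highest levels were 4.20, 5.48 and 5.96 CPM in Abca7 LPS cortex, against 6.20, 7.51 and 8.30 CPM in Abca7 none cortex. In control LPS cortex they were 4.90, 5.37 and 5.54 CPM, against 6.76, 7.24 and 8.34 CPM in control none cortex. Every LPS library lay below every unstimulated library of its genotype. The log2 fold change was -0.51 ± 0.08 (SE) in Abca7-labelled mice, a fall to 0.703 of the unstimulated level (edgeR, adjusted p = 4.8e-05). It was -0.47 ± 0.08 in control mice, with an adjusted p of 0.0001 by edgeR. The call was kept under each of 32 alternative settings in both comparisons.

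Ctsl (chr13:64363214-64370306), a broad endopeptidase, went the other way. Its lowest, median and highest levels were 57.2, 59.2 and 64.0 CPM in Abca7 LPS cortex, against 50.9, 55.8 and 58.5 CPM in Abca7 none cortex. They were 59.0, 64.3 and 65.1 CPM in control LPS cortex, against 54.0, 57.5 and 59.1 CPM in control none cortex. The groups touched in both comparisons, with 5 of 6 control LPS libraries above every control none library. The log2 rise was 0.12 ± 0.04 in Abca7-labelled mice (edgeR, adjusted p = 0.0331) and 0.15 ± 0.04 in control mice (adjusted p = 0.00413). In control mice the call was lost under 2 of 32 settings. These were the level of Ttr, a choroid plexus gene, as a covariate and surrogate variables (edgeR, adjusted p = 0.573 and 0.162). In Abca7-labelled mice the call was lost under 9 of 32 settings, 5 of them the omission of a single library (without Abca7 none replicate 1, 5 or 6, or Abca7 LPS replicate 1 or 5, adjusted p from 0.054 to 0.12 by edgeR). In the GENCODE M21 annotation, overlapping transcripts of other genes cover 26.8% of the 6489 Ctsl exon bases, and reads there cannot be assigned with certainty. The deposited gene length is 1971 bases, so how much of the overlap was counted is not known.

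**Figure D2:**
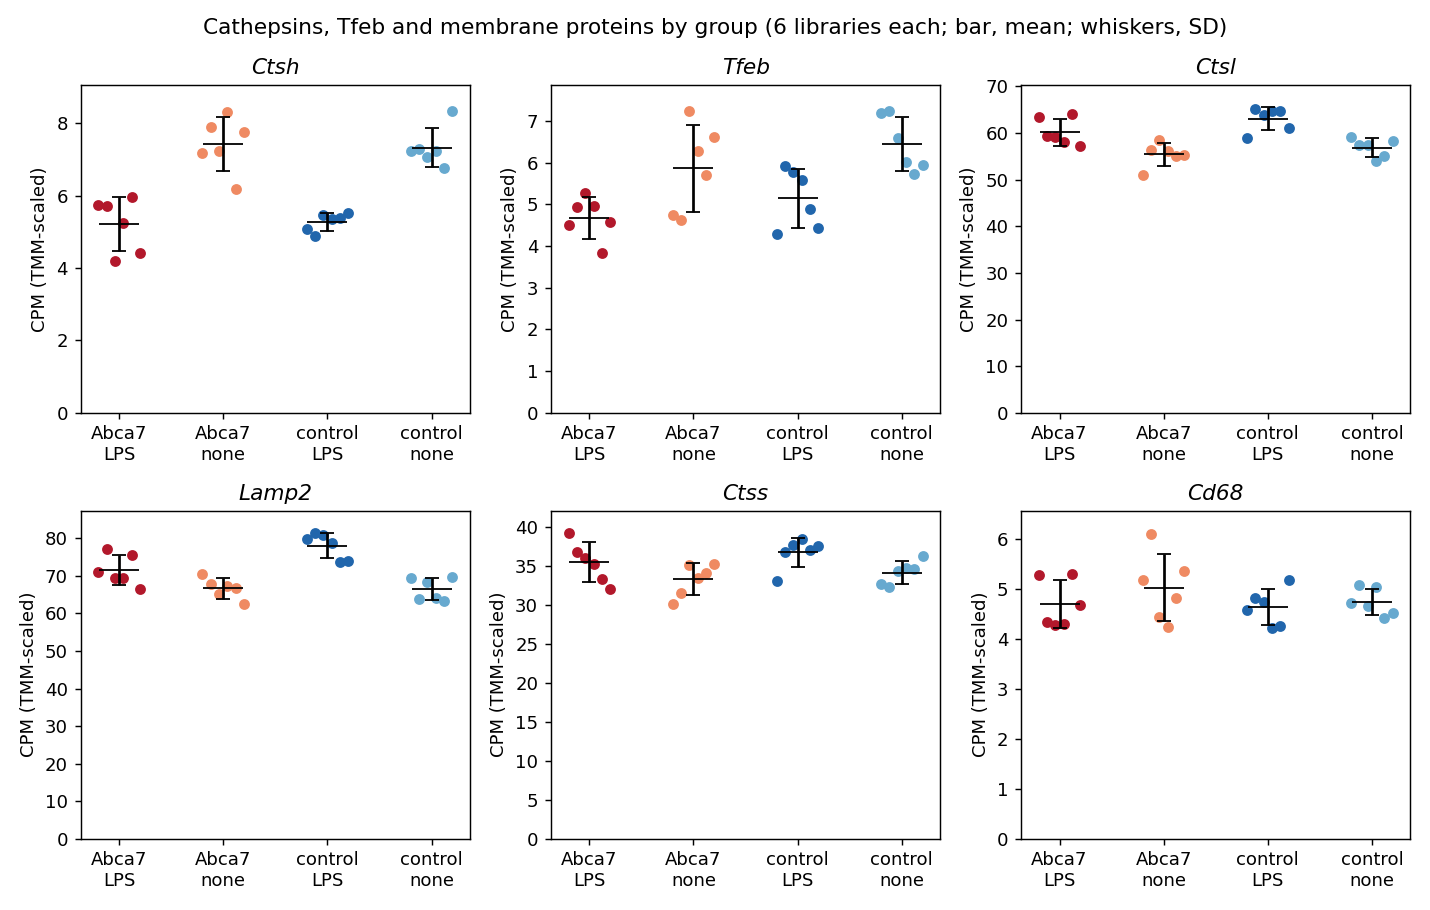
Level of 6 members in each library, in CPM, in Abca7 LPS, Abca7 none, control LPS and control none cortex; horizontal bars are means and whiskers SDs of 6 libraries. Ctsh and Tfeb are lower with LPS in both pairs, Lamp2 is highest in control LPS cortex, and Ctss and Cd68 overlap across groups.

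Ctsb (chr14:63122462-63145919), an abundant cathepsin with endo- and exopeptidase activity, rose in control mice only. It had 445, 457 and 471 CPM as lowest, median and highest in control LPS cortex, against 415, 427 and 451 CPM in control none cortex. The groups overlapped, and the log2 rise was 0.10 ± 0.03 (edgeR, adjusted p = 0.0292). The call was lost under 8 of 32 settings, 5 of them the omission of 1 library (control LPS replicate 1 or 3, or control none replicate 2, 3 or 4, adjusted p from 0.0572 to 0.0871 by edgeR). In Abca7-labelled mice the log2 difference was 0.04 ± 0.03, and the levels were 404, 436 and 470.2 CPM in Abca7 LPS cortex, against 408, 424 and 439.9 CPM in Abca7 none cortex. Ctso, a cathepsin of poorly known substrates (chr3:81932601-81956725), also rose in control mice. It had 25.6, 27.3 and 29.6 CPM in control LPS cortex, against 23.1, 23.9 and 27.0 CPM in control none cortex, a log2 rise of 0.18 ± 0.05 (edgeR, adjusted p = 0.0174). This call was lost under 4 of 32 settings. Without control LPS replicate 3 or 4 the adjusted p was 0.0523 or 0.0516 by edgeR. With the Ttr level as a covariate or with surrogate variables it was 0.53 or 0.543. In Abca7-labelled mice its log2 difference was 0.13 ± 0.05 (adjusted p = 0.14).

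The other 5 cysteine cathepsins passed neither LPS comparison. Ctss, an endopeptidase of antigen-presenting cells and microglia that stays active at neutral pH, ranged from 32.0 to 39.2 CPM in Abca7 LPS cortex, against 30.1 to 35.2 CPM in Abca7 none cortex. In control LPS cortex it ranged from 33.1 to 38.4 CPM, against 32.2 to 36.2 CPM in control none cortex. Its log2 differences were 0.09 ± 0.05 and 0.11 ± 0.05 in Abca7-labelled and control mice (edgeR, adjusted p = 0.258 and 0.137). Ctsc had a log2 difference of 0.28 ± 0.12 in control mice, with a 95% interval of 0.04 to 0.52 (edgeR, adjusted p = 0.112). Ctsk, known as the collagenase of osteoclasts, Ctsf and Ctsz had log2 differences from -0.17 to 0.08 over both comparisons. Of the other proteases, the serine carboxypeptidase Ctsa, the aspartic protease Ctsd and the tripeptidyl peptidase Tpp1 gave log2 differences between -0.06 and 0.06, and none passed.

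Tfeb (chr17:47737030-47792419), the transcription factor, was scarce but fell under both labels. Its lowest, median and highest levels were 3.82, 4.76 and 5.28 CPM in Abca7 LPS cortex, against 4.63, 5.99 and 7.25 CPM in Abca7 none cortex. They were 4.29, 5.24 and 5.93 CPM in control LPS cortex, against 5.72, 6.30 and 7.23 CPM in control none cortex. The LPS medians lay below the unstimulated ones and the groups overlapped in both comparisons. The log2 fold change was -0.33 ± 0.11 in Abca7-labelled mice (edgeR, adjusted p = 0.0456) and -0.32 ± 0.11 in control mice (adjusted p = 0.0377). Both values lie close to the threshold: the call was lost under 14 of 32 settings in Abca7-labelled mice, with adjusted p up to 0.124 by edgeR, and under 7 in control mice, with adjusted p up to 0.091. Single omitted libraries that ended it were Abca7 LPS replicate 1, 2, 5 or 6, Abca7 none replicate 3, 4, 5 or 6, control LPS replicate 4 or 5 and control none replicate 4 in Abca7-labelled mice. In control mice they were control LPS replicate 1, 5 or 6 and control none replicate 1, 2 or 3.

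Of 9 glycosidases, none passed in Abca7-labelled mice, and in control mice 1 rose and 1 fell. Gaa (chr11:119267887-119285454) had 248, 271 and 287 CPM as lowest, median and highest in control LPS cortex, against 216, 227 and 267 CPM in control none cortex, with overlapping groups. Its log2 rise was 0.20 ± 0.06 (edgeR, adjusted p = 0.0222), with 0.10 ± 0.06 in Abca7-labelled mice (adjusted p = 0.38). The call in control mice was lost under 7 of 32 settings, 5 of them the omission of 1 library (control LPS replicate 2, 3 or 4, or control none replicate 3 or 5, adjusted p from 0.0501 to 0.0676 by edgeR). Gusb (chr5:129989011-130003049), the beta-glucuronidase gene, had 9.79, 10.1 and 11.7 CPM in control LPS cortex, against 11.3, 11.998 and 12.9 CPM in control none cortex. The medians differed and the ranges overlapped slightly. Its log2 fold change was -0.19 ± 0.05 (edgeR, adjusted p = 0.0174), and the call was lost only without control LPS replicate 4, where the adjusted p was 0.0519. The remaining 7, Hexa, Gla, Glb1, Man2b1, Neu1, Naglu and Idua, which cleave terminal sugars from gangliosides, glycoproteins or glycosaminoglycans, did not pass. Hexa, the alpha subunit of beta-hexosaminidase, had log2 differences of -0.11 ± 0.04 in Abca7-labelled mice and -0.10 ± 0.04 in control mice (edgeR, adjusted p = 0.108 and 0.123).

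Of 3 sulfatases, Arsa (chr15:89472476-89477425), which removes sulfate from the myelin lipid sulfatide, rose in control mice. It had 28.3, 29.5 and 32.5 CPM as lowest, median and highest in control LPS cortex, against 26.3, 27.6 and 28.9 CPM in control none cortex. The log2 rise was 0.12 ± 0.04 (edgeR, adjusted p = 0.026). This call was lost under 10 of 32 settings, among them age, no filter and a fit of the groups compared, and 5 of the 10 left out 1 library (control LPS replicate 3 or 6, or control none replicate 3, 4 or 6, adjusted p from 0.0536 to 0.0886 by edgeR). In Abca7-labelled mice the levels were 30.1, 32.0 and 33.5 CPM in Abca7 LPS cortex, against 27.9, 29.5 and 30.8 CPM in Abca7 none cortex. There the log2 difference was almost the same, 0.11 ± 0.04, and fell just short of the threshold (edgeR, adjusted p = 0.0551). Sgsh and Ids did not pass.

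None of the 5 lipid hydrolases passed. They are Ppt1, which removes palmitate from proteins, the sphingomyelinase Smpd1, the ceramidase Asah1, the cholesteryl ester and triglyceride hydrolase Lipa and the galactosylceramidase Galc. Lipa had log2 differences of -0.10 ± 0.07 in Abca7-labelled mice and 0.14 ± 0.07 in control mice. Ppt1 gave 0.03 ± 0.03 in Abca7-labelled mice and -0.00 ± 0.03 in control mice. Of the sterol transfer proteins, Npc2 (chr12:84754560-84773112), the soluble carrier that hands cholesterol to NPC1, rose in control mice, and Npc1 passed in neither. Npc2 had 36.1, 40.0 and 43.5 CPM as lowest, median and highest in control LPS cortex, against 32.5, 34.2 and 37.6 CPM in control none cortex. Its log2 rise was 0.20 ± 0.05 (edgeR, adjusted p = 0.00576). The call was lost under 2 of 32 settings, the Ttr level as a covariate and surrogate variables (edgeR, adjusted p = 0.552 and 0.192). In Abca7-labelled mice the log2 difference of Npc2 was 0.06 ± 0.05 (edgeR, adjusted p = 0.544). Its levels there were 35.4, 38.8 and 41.7 CPM in Abca7 LPS cortex, against 35.7, 36.3 and 41.9 CPM in Abca7 none cortex.

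Of 7 membrane proteins, none passed in Abca7-labelled mice and 2 rose in control mice. Lamp2 (chrX:38401357-38456454), a membrane glycoprotein needed for autophagosome turnover, had 73.8, 79.3 and 81.4 CPM as lowest, median and highest in control LPS cortex, against 63.3, 66.3 and 69.7 CPM in control none cortex. These groups did not overlap. The log2 rise was 0.23 ± 0.04 (edgeR, adjusted p = 7.2e-05), and it was kept under each of 32 settings. In Abca7-labelled mice the levels were 66.6, 70.3 and 77.1 CPM in Abca7 LPS cortex, against 62.4, 67.1 and 70.7 CPM in Abca7 none cortex, a log2 difference of 0.10 ± 0.04 (adjusted p = 0.106). Those groups overlapped. Cd63 (chr10:128908919-128912816), a tetraspanin of late endosomes and exosomes, had 27.0, 32.1 and 34.1 CPM in control LPS cortex, against 23.9, 25.2 and 31.2 CPM in control none cortex. Its log2 rise was 0.27 ± 0.09 (edgeR, adjusted p = 0.0272), with 0.18 ± 0.09 in Abca7-labelled mice (adjusted p = 0.19). The call in control mice was lost under 9 of 32 settings, 7 of them the omission of 1 library (control LPS replicate 2, 4 or 5, or control none replicate 3, 4, 5 or 6, adjusted p from 0.0555 to 0.0738 by edgeR). Lamp1, the enzyme receptor Scarb2, Cln3, Mcoln1 and Cd68 did not pass. Cd68, a macrophage and microglial lysosomal glycoprotein often used as a sign of phagocytic activity, ranged from 4.28 to 5.31 CPM in Abca7 LPS cortex, against 4.25 to 6.11 CPM in Abca7 none cortex. It ranged from 4.22 to 5.18 CPM in control LPS cortex, against 4.42 to 5.08 CPM in control none cortex, and its log2 differences were -0.10 ± 0.08 and -0.03 ± 0.08.

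Neither Psap nor Grn, the progranulin gene, passed. Psap differed by 0.04 ± 0.03 on the log2 scale in Abca7-labelled mice and by 0.06 ± 0.03 in control mice. Grn stood out by its spread. It ranged from 104.6 to 217 CPM in Abca7 LPS cortex, 87.5 to 164 in Abca7 none cortex, 103 to 157 in control LPS cortex and 104.1 to 179 in control none cortex. The SD within groups was 0.34 on the log2 scale, against a median of 0.08 and a lowest of 0.04 over the members. Of the 1446 genes at least as abundant, 0.553% had a larger one. The 95% interval of its LPS difference therefore reached from -0.22 to 0.49 in Abca7-labelled mice and from -0.46 to 0.26 in control mice.

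**Figure D3:**
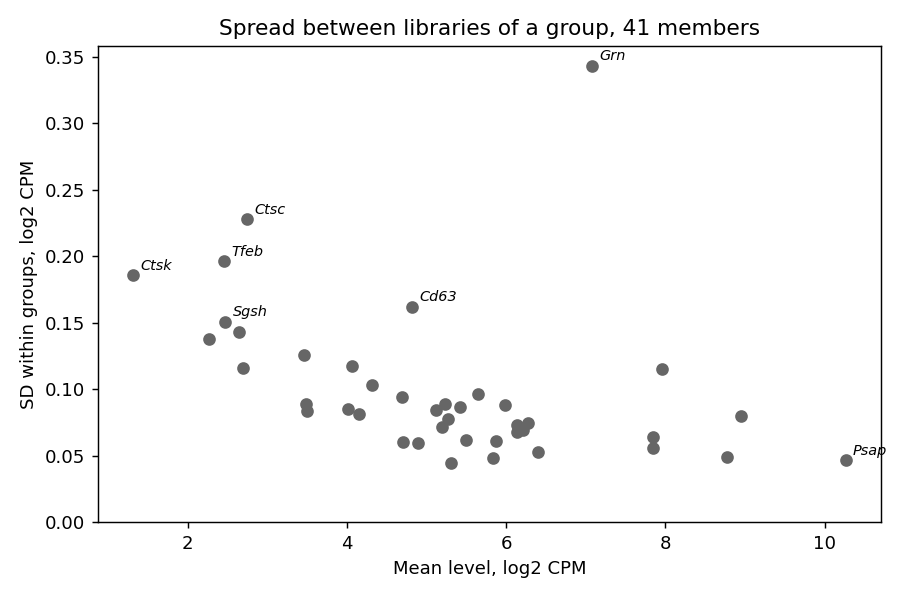
SD of log2 CPM within groups (vertical axis) against mean level over 24 libraries (horizontal axis) for the 41 members. Spread is mostly larger for scarce genes; Grn, at 0.34, lies above all other members in spite of its abundance.

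Markers of several cell types differed with LPS and are set beside these results. Microglial markers (15 of 15 detected, none at 0) summed to 293 to 319.7 CPM in Abca7 LPS cortex, against 355 to 386 CPM in Abca7 none cortex. In control LPS cortex they summed to 290.1 to 316 CPM, against 357 to 378 CPM in control none cortex. Their mean log2 level differed by -0.39 in Abca7-labelled mice and by -0.49 in control mice (exact permutation test, two-sided, p = 0.00216 in each, the smallest that 6 against 6 allow; adjusted over 40 such tests 0.00962). Of the 15 markers, 4 rose and 9 fell in Abca7-labelled mice and 2 rose and 9 fell in control mice, and their part in the fall of Ctsh was not tested. Border macrophage markers (7 of 7 detected) differed by -0.45 and -0.47 (exact permutation p = 0.0108 and 0.00433), and their part was not tested either. In bulk tissue, fewer cells of a type and less RNA per cell cannot be told apart. Astrocyte markers were higher by 0.20 and 0.25 in mean log2 level (exact permutation p = 0.00433 and 0.00216). Their summed level averaged 4173 CPM in Abca7 LPS cortex, against 4161 CPM in Abca7 none cortex, and 4126 CPM in control LPS cortex, against 4088 CPM in control none cortex (exact permutation p = 0.95 and 0.747). Among these markers, S100b averaged 188 ± 280 CPM in Abca7 LPS cortex, against 70.6 ± 5.10 in Abca7 none cortex (SD, n = 6 each). Its SD with LPS exceeds its mean there, and its share in the astrocyte values of Abca7-labelled mice was not tested. Oligodendrocyte markers differed by 0.12 and 0.13 (exact permutation p = 0.227 and 0.141), and neuronal markers differed by -0.00 and -0.01 (exact permutation p = 0.846 and 0.377). Monocyte markers were higher by 1.154 and 1.29 and endothelial markers lower, at -0.67 in each (exact permutation p = 0.00216 in all 4). Some monocyte markers were scarce: Plac8 averaged 0.407 CPM in Abca7 LPS cortex, against 0.0251 CPM in Abca7 none cortex. It averaged 0.498 CPM in control LPS cortex, against 0.0617 CPM in control none cortex. The filter can keep such genes through the LPS groups alone, so no conclusion is drawn from the rise of monocyte markers. The summed level of the 6 monocyte markers overlapped in Abca7-labelled mice, at 30.9 to 38.4 CPM with LPS, against 29.8 to 33.1 CPM without. Meningeal fibroblast markers differed by -0.39 and -0.30 in mean log2 level (exact permutation p = 0.00649 and 0.00216), with p = 0.29 and 0.643 for their sum. The 3 neutrophil markers that passed the filter, of 11 listed, were higher by 1.39 and 1.48 (exact permutation p = 0.00433 and 0.00216). They were scarce: S100a8 averaged 0.356 CPM in Abca7 LPS cortex, against 0.0962 CPM in Abca7 none cortex. It averaged 0.671 CPM in control LPS cortex, against 0.151 CPM in control none cortex. The filter can keep such genes through the LPS groups alone, so no conclusion is drawn from this rise.

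Choroid plexus RNA differed between control groups. Ttr, a gene of choroid plexus epithelium, had a median of 250.4 CPM in control LPS cortex (lowest 165, highest 485), against 12.8 CPM in control none cortex (lowest 4.94, highest 261). In Abca7-labelled mice the median was 265 CPM with LPS (24.3 to 381), against 392 CPM without (48.01 to 449). All 10 choroid plexus markers were detected, and they summed to 199 to 567.8 CPM in control LPS cortex, against 17.5 to 317 CPM in control none cortex. In Abca7-labelled mice they summed to 38.8 to 451 CPM with LPS, against 65.5 to 519.8 CPM without. Their mean log2 level differed by 1.94 in control mice (exact permutation p = 0.0108) and by -0.34 in Abca7-labelled mice (p = 0.498).

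With the Ttr level as a covariate, 1626 of all 21891 genes passed in control mice, against 3790 without it. The members called in control mice dropped to 3 of 41 in that fit, with Lamp2 higher and Ctsh and Gusb lower. Of the 8 members that had risen there, 1 still passed, and their log2 changes lay between -0.05 and 0.20 in that fit, against 0.10 to 0.27 without the covariate. Lamp2 kept an adjusted p of 0.0263 by edgeR, while Npc2 gave 0.552, Ctsl 0.573 and Gaa 0.965. Cd63 changed sign, to -0.05. In Abca7-labelled mice, where the choroid plexus markers gave the p of 0.498 above, the same 8 genes had log2 differences of 0.04 to 0.18. Low Ttr and absence of LPS coincide in 5 of the 6 control none libraries, so their parts cannot be told apart in control mice.

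**Figure D4:**
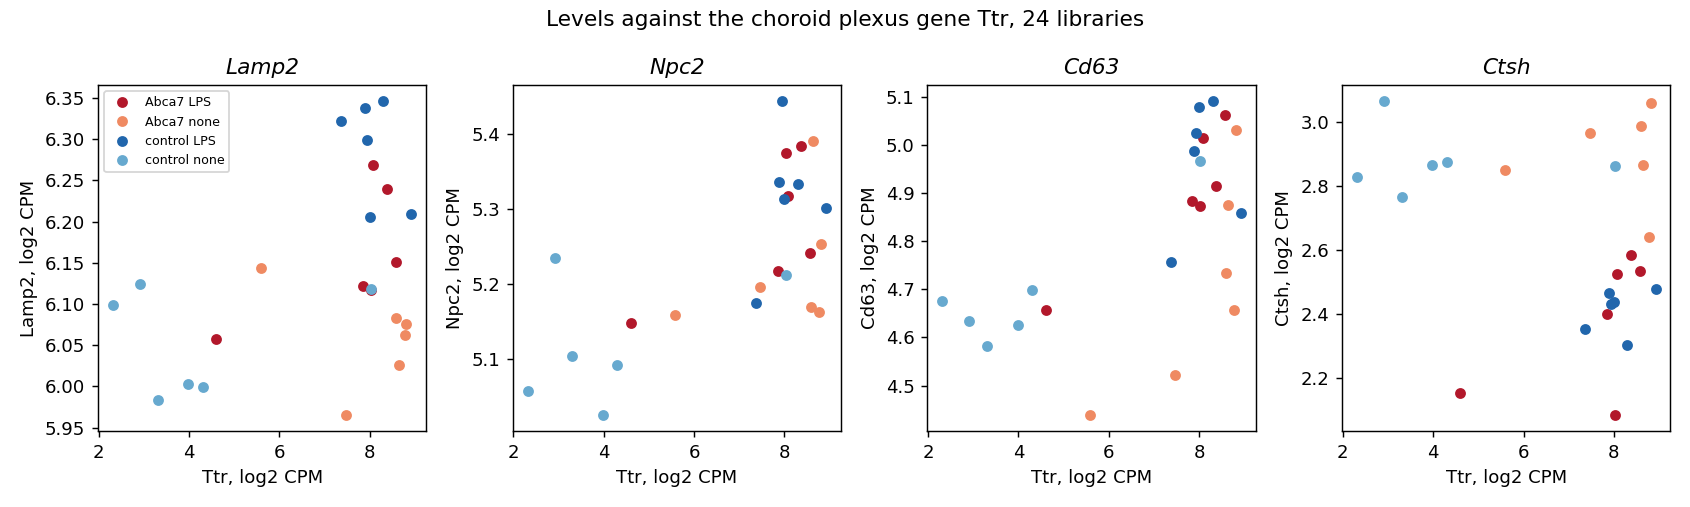
Log2 CPM of Lamp2, Npc2, Cd63 and Ctsh (vertical axes) against those of Ttr (horizontal axes) in 24 libraries coloured by group. In control none cortex, 5 of 6 libraries lie at low Ttr; Ctsh separates LPS from unstimulated libraries at high Ttr too.

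Age differed little between groups and is given by the labels. Among mice of 55 days and among those of 56 days, all 11 members called in control mice kept their direction, and so did all 3 in Abca7-labelled mice. These subsets held 1 to 3 libraries a group and are part of the libraries that gave the calls, so the directions are no independent check. With age as a factor in the fit, 2333 and 4103 of all 21891 genes passed in Abca7-labelled and control mice, against 2591 and 3790 without it. Of the members, 3 and 11 again passed, but not all the same ones. Ctsl in Abca7-labelled mice (log2 0.08, adjusted p = 0.197 by edgeR) and Arsa in control mice (adjusted p = 0.0736) no longer passed, while Naglu in Abca7-labelled mice and Galc in control mice did (adjusted p = 0.027 and 0.0265 by edgeR). Tfeb moved to -0.53 in Abca7-labelled mice, against -0.33 without the age term.

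The second question was whether the genotype label altered these genes. Under LPS, no member passed (edgeR, 0% of all genes; 4 members, or 9.76%, at an unadjusted p under 0.05, against 7.99% of all genes; 0 members by DESeq2). Without LPS, again no member passed, against 0.032% of all genes (3 members, or 7.32%, at an unadjusted p under 0.05, against 6.51% of all genes; 0 by DESeq2). The closest was Scarb2, the receptor that carries glucocerebrosidase to the lysosome. It ranged from 63.9 to 71.5 CPM in Abca7 LPS cortex, against 71.2 to 80.0 CPM in control LPS cortex, and from 59.5 to 71.1 CPM in Abca7 none cortex, against 67.2 to 78.95 CPM in control none cortex. The groups overlapped in both comparisons. Its log2 difference was -0.14 ± 0.04 under LPS and -0.12 ± 0.04 without (edgeR, adjusted p = 0.352 and 0.546). Lamp2 and Lipa gave -0.13 ± 0.04 and -0.15 ± 0.07 under LPS (adjusted p = 0.352 and 0.568). Without LPS, Cln3, a membrane protein lost in juvenile neuronal ceroid lipofuscinosis, gave 0.14 ± 0.05 and Arsa 0.09 ± 0.04 (adjusted p = 0.577 and 0.714). Over the 41 members, differences lay between -0.16 and 0.20 under LPS and between -0.13 and 0.14 without, and the 95% intervals reached at most -0.40 and 0.56.

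The third question was whether the LPS effect differed between labels. The interaction passed for no member (edgeR, 0% of all genes; 3 members, or 7.32%, at an unadjusted p under 0.05, against 3.40% of all genes; 0 by DESeq2). For the 8 genes called in control mice alone, a difference in response between labels is thus not shown. Lipa had the largest of the interactions, -0.24 ± 0.09 on the log2 scale (unadjusted p = 0.014, adjusted p = 1 by edgeR). Lamp2 had -0.13 ± 0.06 and Tpp1 -0.09 ± 0.04 (unadjusted p = 0.0272 and 0.0492 by edgeR). Ctsh and Tfeb had -0.04 ± 0.12 and -0.01 ± 0.15.

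**Figure D5:**
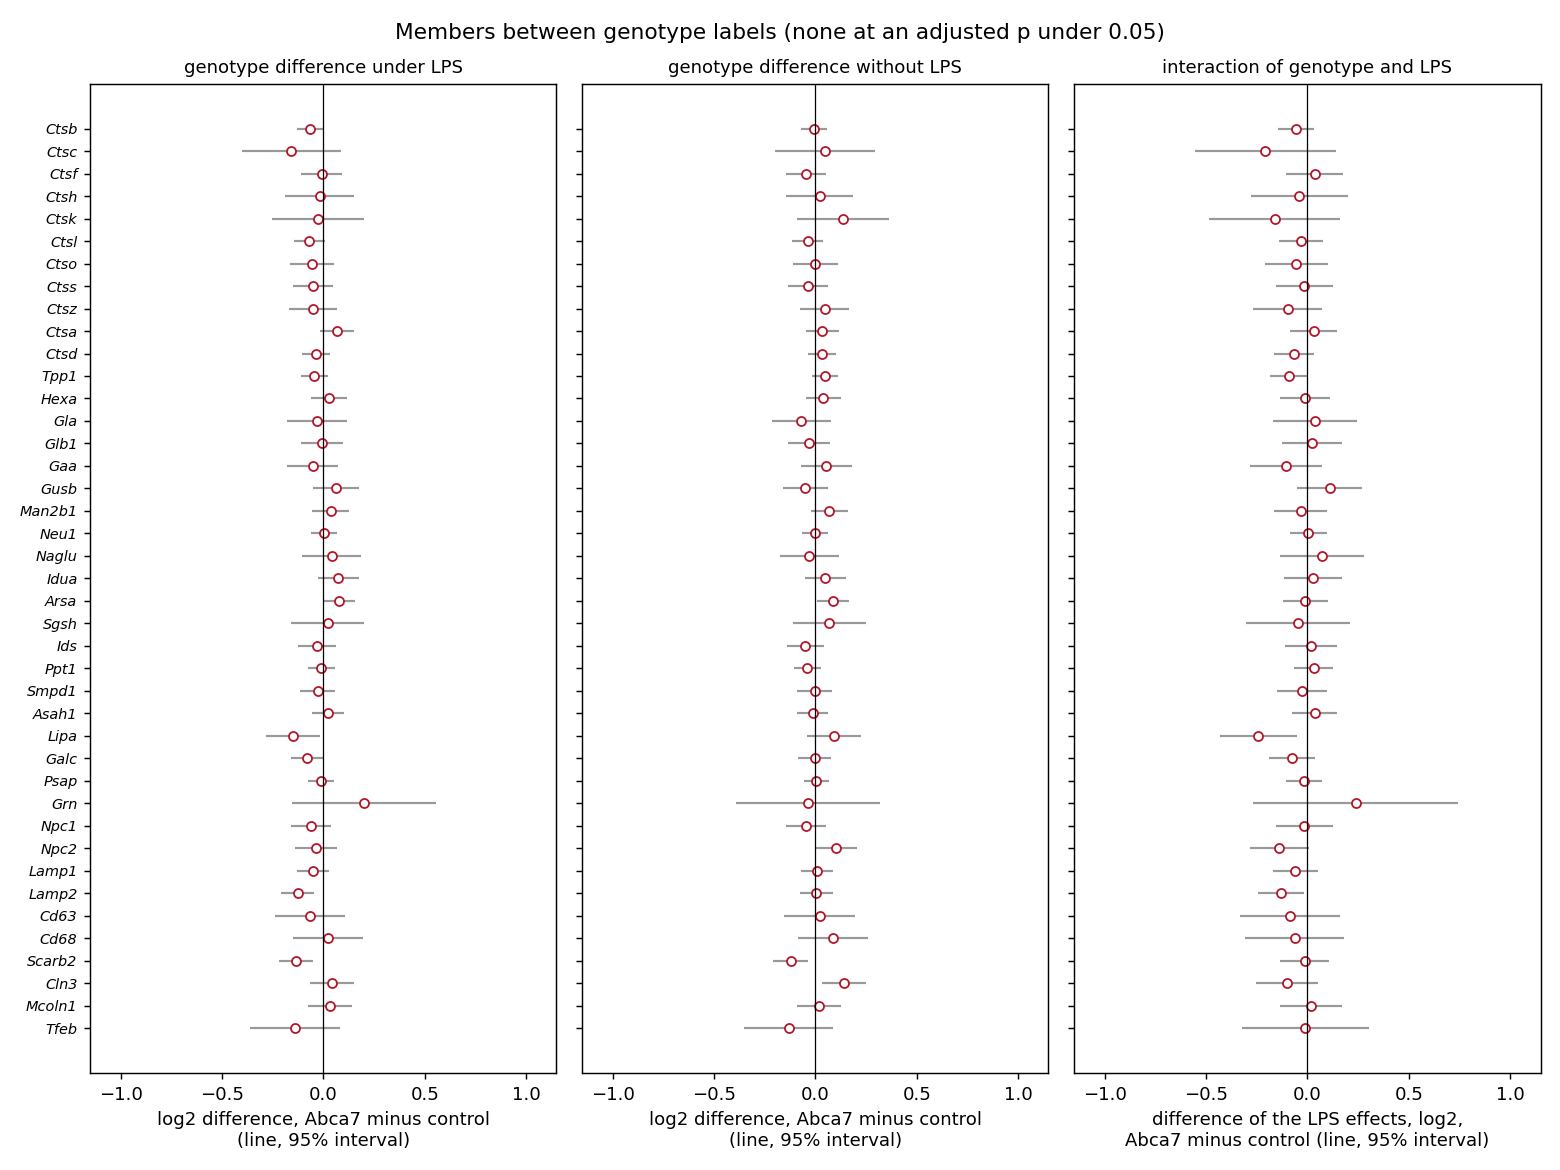
Log2 difference of mice labelled Abca7 minus control mice for the 41 members under LPS (left) and without LPS (middle), and the interaction (right), which is the LPS effect in Abca7-labelled mice minus that in control mice. Lines are 95% intervals; no member passed an adjusted p of 0.05 in any panel, and Grn has the widest interval in each.

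Other lysosomal genes were read from lists by function. Of 18 tested subunits of the V-ATPase, the proton pump that acidifies the lysosome, 0 passed in either LPS comparison, with medians of 0.02 and 0.01 in Abca7-labelled and control mice (2 and 1 at an unadjusted p under 0.05 by edgeR). Among 26 other hydrolases, 0 rose in either and 4 and 3 fell. Pld4, an exonuclease of phagocytic cells, averaged 3.61 ± 0.542 CPM in Abca7 LPS cortex, against 4.94 ± 0.438 in Abca7 none cortex, and 2.81 ± 0.307 CPM in control LPS cortex, against 5.40 ± 0.369 in control none cortex (SD, n = 6 each). Its log2 changes were -0.46 ± 0.09 and -0.94 ± 0.09. Hyaluronidases also fell, Hyal1 in Abca7-labelled mice (-0.29 ± 0.07, with 49.7% of its 50-base sequences shared with other genes) and Hyal2 in both (-0.26 ± 0.08 and -0.22 ± 0.08). In control mice Hyal1 did not pass but went the same way, at 7.13 CPM with LPS, against 7.85 without.

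Among 24 other membrane proteins and transporters, 3 rose and 1 fell in Abca7-labelled mice and 3 rose and 2 fell in control mice. Litaf, an endolysosomal membrane protein first described as an LPS-induced factor, averaged 25.2 ± 3.61 CPM in Abca7 LPS cortex, against 11.3 ± 2.30 in Abca7 none cortex. It averaged 28.4 ± 2.02 CPM in control LPS cortex, against 12.8 ± 2.001 in control none cortex, and rose by 1.16 ± 0.11 on the log2 scale in both. Laptm5, a lysosomal protein of hematopoietic cells, fell by 0.23 in both. Cln6 rose in Abca7-labelled mice (0.35 ± 0.09) and Cd164 in control mice (0.23 ± 0.04). Under the other label the means of both went the same way. Cln6 averaged 8.36 CPM in control LPS cortex, against 7.20 in control none cortex. Cd164 averaged 68.9 CPM in Abca7 LPS cortex, against 63.7 in Abca7 none cortex. Of 14 genes of mannose 6-phosphate and sortilin sorting, 0 passed in Abca7-labelled mice and 1 fell in control mice, Ap3d1 by 0.09. In Abca7-labelled mice Ap3d1 went the same way, at 162 CPM with LPS, against 172 without.

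Of 20 regulators of the MiT family and mTORC1, 1 rose in Abca7-labelled mice (Rragb, 0.14 ± 0.04). Rragb did not pass in control mice but went the same way, at 62.0 CPM with LPS, against 57.3 without. In control mice Flcn, which acts on TFEB through the Rag GTPases, fell by 0.17. Flcn did not pass in Abca7-labelled mice but went the same way, at 42.4 CPM with LPS, against 46.2 without. The scarce Tfec rose in control mice and averaged 0.188 ± 0.114 CPM in control LPS cortex, against 0.0199 ± 0.0316 in control none cortex. In Abca7-labelled mice Tfec did not pass but went the same way, at 0.147 ± 0.129 CPM with LPS, against 0.0519 ± 0.0301 without. Among 19 autophagy genes, 1 rose and 1 fell in Abca7-labelled mice and 2 rose in control mice; Uvrag rose in both, by 0.16 ± 0.05 and 0.15 ± 0.05, Map1lc3b rose by 0.10 ± 0.03 in control mice, and Wipi1 fell by 0.17 in Abca7-labelled mice. Map1lc3b and Wipi1 did not pass under the other label but went the same way. Map1lc3b averaged 149 CPM in Abca7 LPS cortex, against 143 in Abca7 none cortex. Wipi1 averaged 16.7 CPM in control LPS cortex, against 18.5 in control none cortex. Of 12 cystatins and other cathepsin inhibitors, 6 were tested. Serpina3g, a serpin that inhibits cysteine cathepsins, averaged 6.44 ± 1.03 CPM in Abca7 LPS cortex, against 0.215 ± 0.138 in Abca7 none cortex. It averaged 7.44 ± 0.848 CPM in control LPS cortex, against 0.0988 ± 0.0659 in control none cortex, and rose by 4.92 ± 0.23 and 6.14 ± 0.25 on the log2 scale, while 15.5% of its 50-base sequences also occur in neighbouring serpin genes. Cst7, an inhibitor of cathepsins C, H and L, rose in Abca7-labelled mice and averaged 0.228 ± 0.0671 CPM in Abca7 LPS cortex, against 0.108 ± 0.0395 in Abca7 none cortex. In control mice it did not pass but went the same way, at 0.246 ± 0.0595 CPM with LPS, against 0.148 ± 0.0608 without. All these levels are low. The filter can keep genes as scarce as Tfec and Cst7 through the LPS groups alone, so no conclusion is drawn from their rises.

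Counting adds uncertainty for some members. Whether strand was used is not given, and exons of other genes overlap at least 1 exon base of 16 members, with 3 over 20%: Ctsd (34.4%), Ctsl (26.8%) and Sgsh (21.6%). For 8 members over 10% of their 50-base sequences also occur in transcripts of another gene, among them Arsa (15.8%), Ctsb (12.1%) and Cd63 (11.1%). For Ctsh, Tfeb and Lamp2, the shares were 0.0635%, 0% and 0.663%.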

How the data were processed

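Cortical total RNA of mice was measured by RNA-seq in 24 libraries, per the labels. Reads were mapped to mm10 with STAR 2.5.2b, per the submitters' processing notes, and gene counts came from MAP-RSeq 2.1.1, per the series text. The authors deposited raw counts per gene, not normalized; the sources used here give no annotation release or strand setting. Genes were filtered by group with filterByExpr, scaled by TMM and fitted over all 24 libraries with edgeR 4.0.16 in R 4.3.3, with 1 coefficient per group and 5 contrasts, two-sided, at an adjusted p of 0.05. The fit was tested on simulated data. SE is the log2 fold change over the square root of F. CPM use TMM factors; log2 CPM of single libraries add a prior count of 2. Alternatives were DESeq2 1.42.0, upper-quartile scaling, omission of 2 ribosomal loci, no filter, fits of the groups compared, age, Ttr, 5 surrogate variables (sva 3.50.0) and omission of each library. Coordinates are those of the deposited table; overlaps used GENCODE M21. Replicate numbers only name libraries, in accession order within a group. Each library title carries its own number, and nothing else says that libraries are separate animals, so p-values measure the spread between libraries, which may be technical; no 2 libraries of a group agreed within sampling noise. The members and lists were chosen with earlier results of these data known; members that passed a comparison, and up to 3 called genes per list, are named with values, apart from 1 result that is not reported here.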

Additional observations from a re-analysis of the deposited data

Results flagged for a closer look

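Of 164 group values checked (41 members in 4 groups of 6), 8 held a library set far from the other 5, and chance alone marks about 1 group in 20. Among unstimulated mice labelled Abca7, replicate 1 was low for Ctsd, at 209.8 CPM against 233 to 242 CPM in the others, and high for Gla, at 12.9 CPM against 10.2 to 10.8 CPM. Replicate 2 of that group was low for Idua, at 15.7 CPM against 17.8 to 18.6 CPM. In Abca7 LPS cortex, replicate 4 was low for Neu1, at 36.3 CPM against 39.2 to 39.9 CPM.

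In control LPS cortex, Ctss was low in replicate 1, at 33.1 CPM against 36.7 to 38.4 CPM, and Galc was high in replicate 4, at 29.4 CPM against 26.7 to 27.3 CPM. In control none cortex, Ctsh was high in replicate 6, at 8.34 CPM against 6.76 to 7.29 CPM. Cd63 was high in control none replicate 1, at 31.2 CPM against 23.9 to 25.9 CPM, and that library also held the highest Ttr of its group, 261 CPM.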

How the results depend on the processing

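Scaling mattered little: DESeq2, upper-quartile scaling and omission of the ribosomal loci each kept 3 members called in Abca7-labelled mice and 11 in control mice. In Abca7-labelled mice the count was 1 without a filter on low counts, 1 when only the groups compared were fitted and 5, all lower, with surrogate variables; over single omitted libraries it ran from 1 (without Abca7 LPS replicate 1 or Abca7 none replicate 5) to 4. In control mice it was 3 with Ttr as a covariate, 5 (1 higher, 4 lower) with surrogate variables, and 7 to 11 over single omitted libraries, with 7 without control LPS replicate 3 or 4 or control none replicate 3. Over all genes, 2591 of 21891 passed in Abca7-labelled mice in the main fit. There, 2361 of 34641 passed without a filter, 2236 of 20953 in the groups compared and 2592 with surrogate variables. Single omitted libraries gave 2165 to 2841. In control mice 3790 genes passed in the main fit, 1626 with Ttr and 3447 with surrogate variables. Single omitted libraries gave 3201 to 4189 in control mice. Cd63 reversed to -0.048 with Ttr (edgeR, adjusted p = 0.853). Between genotype labels, surrogate variables gave 1 call without LPS, Scarb2 (edgeR, adjusted p = 0.0481), with 131 of all 21891 genes passing in that fit. The cause of these shifts was not tested, apart from fewer libraries or genes where they were left out. Single values past the threshold no longer passed in 26 cases, and 8 newly passed, over settings other than omitted libraries, with 47 and 10 over those. The interaction was not fitted from only the groups compared, since all 4 enter it. No paired analysis was possible because the labels give no replicate numbers; those used here only name libraries within a group. Depth did not limit detection; precision rests on 6 libraries a group, with a median SE of 0.05 on the log2 scale, 0.07 for the interaction.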
